A study of Bos taurus with 20 samples.

Results

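The HOX genes are transcription factors of the homeodomain class that give cells their position along the body axis. In cattle, as in other mammals, they lie in clusters named HOXA, HOXB, HOXC and HOXD, and genes of the same number in different clusters (a paralogue group) descend from a common ancestor. Low-numbered genes act towards the head and high-numbered genes towards the tail. In the developing Mullerian duct, HOXA9, HOXA10, HOXA11 and HOXA13 mark successive segments, from oviduct through uterus and cervix to vagina, and the adult endometrium keeps HOXA10 and HOXA11, which respond to ovarian steroids and are needed for the uterus to receive an embryo.

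The genes described here were chosen by name alone: every noncontrol array probe whose design name was HOXA, HOXB, HOXC or HOXD with a number. This gave 38 probes for 25 genes, of 43653 probes in all. Endometrium was biopsied with forceps from 10 cows (Bos taurus), once in each of 2 periods, and each biopsy was hybridised to 1 single-colour Agilent array of 60-base probes, so that the 20 arrays form 10 pairs. In the early group, labelled as a short period after parturition, the cows were 42 to 86 days after calving (60.1 ± 13.3 days, SD, n = 10). In the late group, the long period, they were 343 to 436 days after calving (388.9 ± 27.5 days, SD, n = 10). All biopsies came from the uterine horn beside the ovary that carried the corpus luteum, 7 days after oestrus. Breed, age, parity and any later pregnancy are not given in the sources used here. The question that the pairs address is whether expression in the endometrium differs between the periods.

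A level below is a probe's processed signal on the log2 scale, less the 75th percentile of its array, so 0 is the 75th percentile and 1 unit is a 2-fold difference. Levels of different probes are not set against each other, because probes differ in how well they bind. Between 71.8% and 80.2% of the 43803 noncontrol spots of an array were well above background, the scanner software's call for a detected spot, and 0 were saturated. The arrays lay on 5 slides: slides 1 and 2 held early samples, slides 4 and 5 held late samples, and slide 3 held both, with 2 arrays of each. Markers of several cell types were detected: 8 of 8 epithelial, 9 of 9 stromal fibroblast and 7 of 7 smooth muscle markers were well above background on every array. So were 5 of 6 endothelial markers, while VWF was above background on only 2 arrays. Of all probes, 66.9% were above background on every array, so such detection does not check the tissue label. In such bulk tissue, fewer cells of a type and less RNA per cell cannot be told apart.

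The high-numbered genes carry the results below, and several of their probes lie in the homeodomain itself. The probes are shown because they say which end of the transcript was measured and how alike the HOX probes are. Probe positions are those of the array files, on Btau_3.1. In the first set, capitals mark the codons for the conserved residues of the third homeodomain helix, which contacts DNA, or the stop codon where that is what the probe holds.
HOXD10, chr2:21458173-21458232, minus strand: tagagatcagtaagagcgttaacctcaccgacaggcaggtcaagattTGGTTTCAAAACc
HOXD11, chr2:21468051-21468110, minus strand, stop codon: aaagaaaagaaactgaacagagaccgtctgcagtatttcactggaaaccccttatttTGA
HOXD13, chr2:21482489-21482548, minus strand: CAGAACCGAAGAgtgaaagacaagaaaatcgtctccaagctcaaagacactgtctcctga
HOXC12, chr5:28927079-28927138, minus strand: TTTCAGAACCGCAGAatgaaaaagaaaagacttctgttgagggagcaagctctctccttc
HOXA13, chr4:71576177-71576236, plus strand: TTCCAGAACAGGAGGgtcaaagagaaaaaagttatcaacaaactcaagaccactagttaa
HOXB13, chr19:38999999-39000058, plus strand: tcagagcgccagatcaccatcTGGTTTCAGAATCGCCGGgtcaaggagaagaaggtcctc

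Because that helix is so conserved, probes placed in it can resemble each other. The longest run of bases shared by probes of different HOX genes was 20 of 60. It was found between the probes of HOXD12 and HOXB4, where capitals mark the shared run, and again between HOXB4 and HOXD4 probes.
HOXD12, chr2:21476465-21476524, minus strand: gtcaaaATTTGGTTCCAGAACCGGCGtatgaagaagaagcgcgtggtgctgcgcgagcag
HOXB4, chr19:39119039-39119098, plus strand: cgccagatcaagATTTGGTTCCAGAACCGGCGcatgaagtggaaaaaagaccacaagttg

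Most HOX genes on the array were detected in this tissue. A gene was taken as detected on an array where its best probe was well above background. Of the 25 genes, 19 were detected on all 20 arrays, 4 on 8 to 19, 1 on fewer than 8 and 1 on none. Counted by probe, 25 of 38 (65.8%) were above background on all 20 arrays, beside 66.9% of all probes, and 3 (7.89%) on none, beside 12.1% of all probes. Detection of the family as a whole was thus close to that of all probes.

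The HOXA cluster was detected throughout: all 7 of its genes by the rule (HOXA2, HOXA3, HOXA4, HOXA5, HOXA7, HOXA9 and HOXA10) were above background on all 20 arrays. In the HOXB cluster 5 of 7 genes were (HOXB2, HOXB3, HOXB4, HOXB8 and HOXB9). HOXB1, the most head-ward gene of its cluster, was detected in 6 early and 9 late samples, and HOXB7 in 9 and 9. In the HOXC cluster 3 of 6 genes were detected on every array (HOXC4, HOXC6 and HOXC13). HOXC5 was above background on 0 early and 1 late array and HOXC12 on none. In the HOXD cluster 4 of 5 genes were detected on every array (HOXD4, HOXD10, HOXD11 and HOXD12), and HOXD13, a gene of limb ends and the urogenital tract, had a probe detected on 6 early and 4 late arrays and another on 7 and 2. By paralogue group, 12 of 15 genes of groups 1 to 8 were detected on every array, as were 5 of 6 of groups 9 to 11 and 2 of 4 of groups 12 and 13. These counts are small and were not tested against each other.

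Several HOX genes are on the array under other names or identifiers and so fall outside the rule. A RefSeq name table, or the array's own probe descriptions, placed 13 further probes in 9 HOX genes. Of these genes, 6 had such a probe above background on all 20 arrays. HOXA11, the neighbour of HOXA10 and a regulator of stromal decidualisation and gland formation, was one of them. HOXA6, HOXC10, HOXD8, HOXD9 and a further HOXB2 probe were also detected on every array. The vaginal segment gene HOXA13 was detected in 3 early and 2 late samples, and HOXB13, its counterpart in the HOXB cluster, in 4 and 4. HOXC8 was on no array. A probe at background does not show that the gene is silent: HOXC13 had 1 probe above background on all 20 arrays and another on none, and the 2 HOXC11 probes were above background on 11 arrays and on none.

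**Figure D1:**
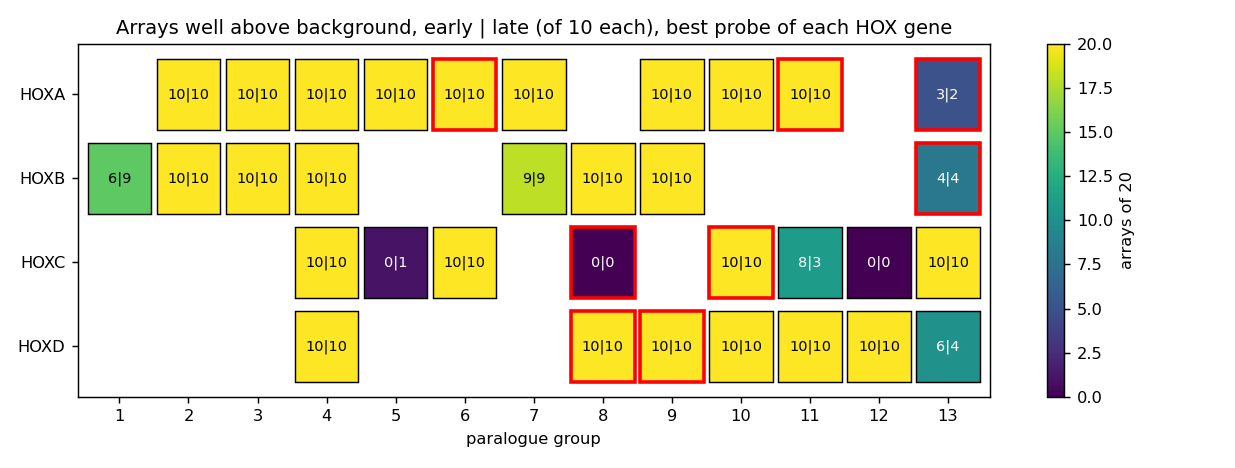
Number of early and late arrays (of 10 each) on which the best probe of each HOX gene was well above background, by cluster (rows) and paralogue group (columns). Red frames mark genes with no probe by the rule, and colour gives the sum over 20 arrays. The HOXA row is at 10 and 10 through HOXA11, and HOXA13, HOXB13, HOXC5, HOXC8 and HOXC12 are low or at 0.

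Late was then compared with early within cows. The comparison was made with limma, with cow as a block and Benjamini-Hochberg adjustment over 19416 genes, and 23 HOX genes entered it (HOXC5 and HOXC12 were too dim). None changed at an adjusted p of 0.05 in limma: 0 of 23, where 256 of all genes tested (1.32%) passed, 151 of them lower late. The smallest adjusted p of a HOX gene was 0.0959. At an unadjusted p under 0.05, 5 HOX genes (21.7%) stood out, beside 22.6% of all genes, so their share was near the background. Of these 5, 4 had a lower late level (HOXC11, HOXD10, HOXA10 and HOXD11) and 1 a higher one (HOXD12). The background is 10.2% of genes lower and 12.4% higher at that p. The count of 5 rested on single cows: it was 2 (8.70%) without cow 4, without cow 8 or without cow 9, beside 21.4%, 19.2% and 20.7% of all genes. It was 8 (34.8%) where probes of 1 gene were averaged, beside 23.1%, and 0 with slide as a fixed block, beside 1.89%.

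HOXA10 is the member most tied to the uterus. Its level was 3.19, 3.59 and 4.34 (lowest, median and highest of 10) early, and 2.63, 3.28 and 3.96 late. The groups overlapped over most of their range, and the late level was the lower one in 6 of 10 cows. The mean difference was -0.32 ± 0.13 (SE, n = 10 pairs), or 1.24-fold lower (95% interval 1.02 to 1.52), with an unadjusted limma p of 0.0368 and an adjusted p of 0.194. HOXA11, measured by a probe outside the rule, had levels of 4.02, 4.31 and 5.03 early and 3.17, 3.97 and 4.55 late. It was lower late in 7 of 10 cows, with a difference of -0.41 ± 0.15 (SE, n = 10 pairs; limma on each probe, adjusted p = 0.168). HOXA9, the oviduct segment gene, ranged more widely between cows than either: 0.84, 2.16 and 3.07 early and 1.47, 2.04 and 2.96 late. As many cows were lower as higher, 5 and 5, and the difference was -0.07 ± 0.14 (SE, n = 10 pairs; limma adjusted p = 0.787). HOXA13 stood at -7.34, -6.90 and -6.52 early and -8.07, -7.13 and -6.42 late, where most arrays were not well above background.

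HOXD10 and HOXD11 are neighbours in the HOXD cluster and act in the limb and urogenital tract. HOXD10 was at 0.04, 0.48 and 1.56 early and -0.65, 0.21 and 0.85 late. The difference was -0.46 ± 0.19 (SE, n = 10 pairs), lower in 7 of 10 cows, and missed the limma threshold (adjusted p = 0.188). Its second probe, the one printed above, gave -0.49, so both probes of the gene agree in size. HOXD11 was at -3.93, -3.23 and -1.56 early and -4.92, -3.87 and -2.30 late. The difference was -0.82 ± 0.35 (SE, n = 10 pairs), again lower in 7 of 10 cows and short of the limma threshold (adjusted p = 0.198); with normexp it was -0.55. The 2 highest early levels of HOXD11 belonged to cows 4 and 9, at -1.56 and -1.80, and the 2 probes of HOXD9, next in the cluster but outside the rule, gave -0.51 and -0.48.

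Among the probes that represent genes, those of HOXC11 and HOXD12 had the smallest p-values, and both are dim. HOXC11, a gene of the hind body and limb, was at -7.21, -6.25 and -5.67 early and -9.03, -7.34 and -5.59 late, a difference of -1.001 ± 0.30 (SE, n = 10 pairs; limma adjusted p = 0.0959), lower in 8 of 10 cows. The probe was above background on 8 early arrays and 3 late ones, so most of its late values are readings near background, and its other probe, on no array, gave 0.14. With normexp background correction the difference of HOXC11 was -0.12 and that of HOXD12 0.17. HOXD12 was at -5.96, -5.73 and -4.92 early and -5.82, -5.24 and -4.60 late, the highest of each group being cow 10. It was higher late in 8 of 10 cows, by 0.37 ± 0.12 (SE, n = 10 pairs; limma adjusted p = 0.111). Its probe shares the 20-base run with the HOXB4 probe shown above, and whether HOXB4 transcript adds to its signal was not tested. HOXB1, sixth by p, was at -8.03, -6.75 and -5.48 early and -6.74, -6.33 and -5.86 late, a difference of 0.42 ± 0.19 (SE, n = 10 pairs; limma adjusted p = 0.222), and was detected in 6 early and 9 late samples. With normexp it was 0.11.

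**Figure D2:**
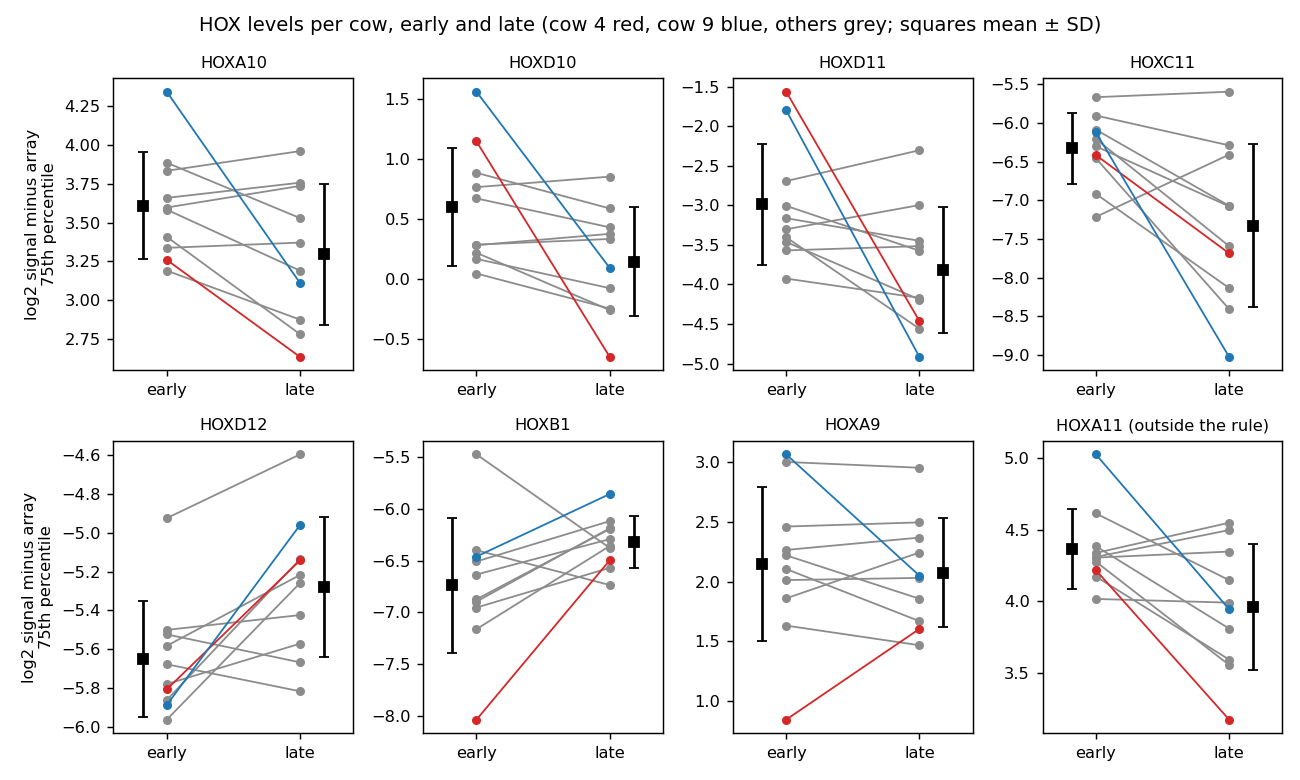
Level of 8 HOX genes in each cow, early and late (log2 scale, relative to the 75th percentile of the array; each panel has its own axis), with lines joining the samples of a cow and squares showing mean ± SD over 10 cows. Cow 4 is red and cow 9 blue; for HOXD11 they run from -1.56 and -1.80 early to -4.46 and -4.92 late, while the other cows change less.

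The changes of low-numbered and high-numbered genes were also described by paralogue group. Of the 14 tested genes of groups 1 to 8, 12 had a positive and 2 a negative change, from -0.12 (HOXC6) to 0.43 (HOXA2), with a median of 0.16. Of the 6 genes of groups 9 to 11, 5 had a negative change, with a median of -0.39 and the exception of HOXB9 at 0.02. In groups 12 and 13 the values were -0.13 (HOXD13), 0.09 (HOXC13) and 0.37 (HOXD12). The probes of HOXD13 differed: the one that represents it was lower late in 5 of 10 cows, and the other, detected on 9 arrays, gave -0.62 ± 0.17 (SE), lower in 9 of 10 cows. Fitted on each probe, that second probe had the smallest p of any HOX probe by the rule (unadjusted limma p = 0.00401, adjusted p = 0.105). Over all 23 HOX genes 8 were negative and 15 positive, with a median of 0.09, beside 47.1% negative and a median of 0.02 over all genes tested. No gene passed the threshold, so these are descriptions of direction. The 12-to-2 split rested on cows 4 and 9: without them 8 of the 14 low-numbered genes were negative and their median was -0.01. Without the same cows all 6 genes of groups 9 to 11 were negative, with a median of -0.18.

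**Figure D3:**
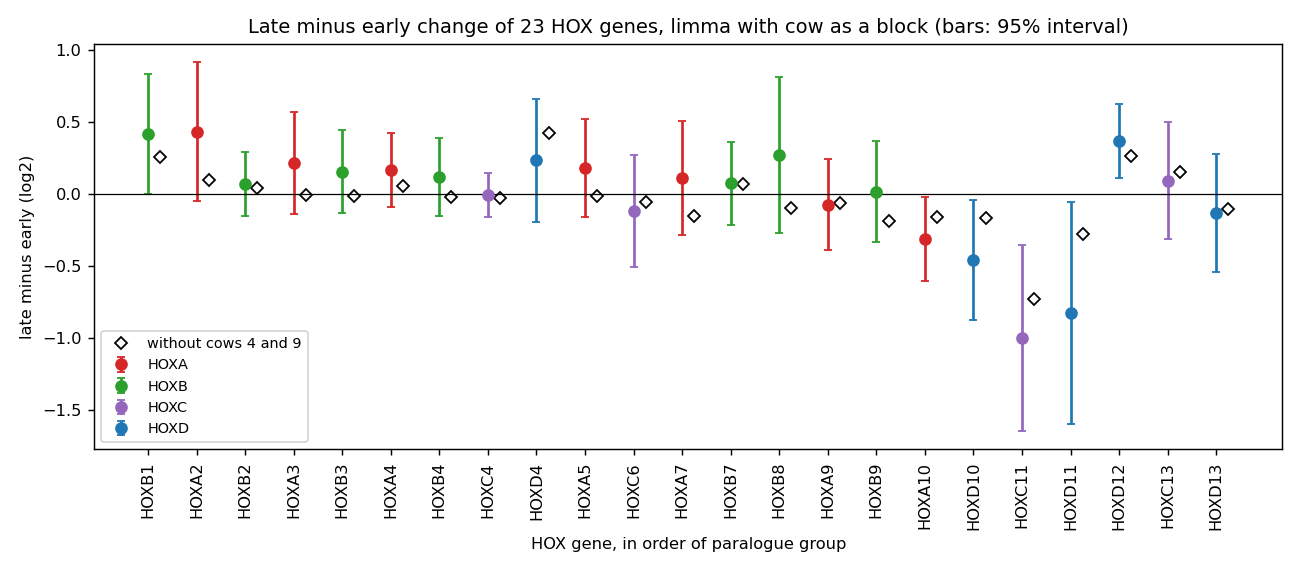
Late minus early change (log2) of the 23 tested HOX genes in order of paralogue group, coloured by cluster, with the 95% interval of the limma estimate over 10 pairs. Diamonds give the change without cows 4 and 9; they lie nearer 0 than the circles for HOXA2 (0.10), HOXD10 (-0.17), HOXD11 (-0.28) and HOXC11 (-0.73), and farther from 0 for HOXD4 (0.43).

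Cows 4 and 9 had the largest changes of several HOX genes, in more than 1 cluster. HOXD11 changed by -2.90 in cow 4 and -3.12 in cow 9, HOXD10 by -1.80 and -1.47, while HOXA10 changed by -0.63 and -1.23, the former as in cow 8 (-0.63). In the same cows HOXA2, a gene of the hindbrain and neural crest, changed by 1.70 and 1.86, HOXA3 by 1.12 and 1.13, and HOXB8 by 1.17 and 2.32. Without both cows the limma difference was -0.16 for HOXA10 (unadjusted p = 0.143), -0.17 for HOXD10 (unadjusted p = 0.0677), -0.28 for HOXD11 (unadjusted p = 0.129), -0.73 for HOXC11 (unadjusted p = 0.0236) and 0.27 for HOXD12 (unadjusted p = 0.0412). HOXD4 went the other way, from 0.24 to 0.43 (unadjusted p = 0.0409), so 3 of 23 HOX genes were under 0.05 without these cows. Summed stromal, smooth muscle and macrophage markers fell most in these cows too, though the macrophage fall of cow 9 was near that of cow 1 (-0.98). The epithelial change of cow 4 did not stand out, being below those of cows 8 (0.34) and 10 (0.34). The summed level of the 9 stromal markers changed by -0.65 and -0.56, and that of the 8 epithelial markers by 0.15 and 1.79, the early sample of cow 9 having the lowest epithelial level of the early group (4.47). The summed level of the 7 smooth muscle markers changed by -1.88 and -1.60, from the highest early sums (6.88 in cow 4 and 6.69 in cow 9), against -0.43 to 1.05 in the other cows. That of the 6 macrophage markers changed by -2.001 and -1.11. Over all cows the stromal sum ran from 8.36 to 8.90 early and from 8.14 to 8.63 late, with 9 of 9 markers negative in change (median -0.25, or -0.08 without cows 4 and 9) and 0 past the threshold. The smooth muscle sum ran from 4.66 to 6.88 early and from 4.92 to 6.05 late, with 3 of 7 negative and 0 past the threshold. The epithelial sum ran from 4.47 to 6.31 early and from 5.65 to 6.54 late, with 2 of 8 negative. Of the macrophage list, 3 of 6 markers fell (VSIG4, CD68 and MSR1; limma adjusted p under the threshold), with sums of 1.52 to 3.28 early and 1.03 to 2.51 late. The part of these cells in the HOX values was not tested.

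**Figure D4:**
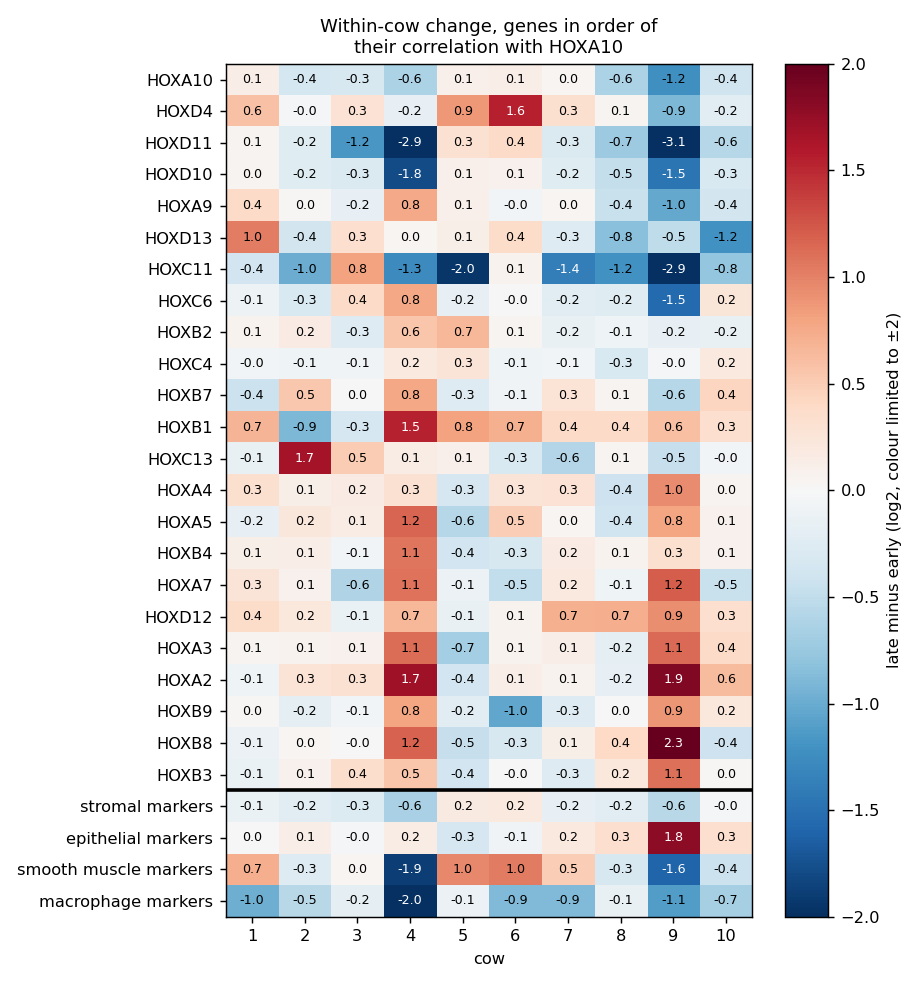
Within-cow change (late minus early, log2) of 23 HOX genes in 10 cows, ordered by correlation with HOXA10 from high to low, above the change of the summed stromal, epithelial, smooth muscle and macrophage markers. Colour stops at -2 and 2. Columns 4 and 9 are blue for HOXD10, HOXD11 and the smooth muscle and macrophage sums, and red for HOXA2, HOXA3 and HOXB8.

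The median correlation of HOX changes was somewhat higher within a cluster than across clusters, and no background from other genes was computed. Over 58 pairs within a cluster the median Pearson correlation of the 10 within-cow changes was 0.25, and over 195 pairs across clusters it was -0.00; without cows 4 and 9 the medians were 0.16 and -0.03. These are descriptions over arrays shared by all genes. HOXD10 with HOXD11 had an r of 0.97 (0.86 without the 2 cows), and HOXA2 with HOXA3 an r of 0.97 (0.87). HOXA2 and HOXD11 ran opposite, at -0.93, but at -0.46 without the 2 cows. Genes of the same cluster could also run opposite, such as HOXA2 with HOXA10 at -0.78 (-0.37 without the 2 cows).

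Relations of HOXA10 with the other 22 HOX genes were computed after the values above were seen, with 100000 permutations of the 10 cows and adjustment over 19207 genes. HOXD4 (r = 0.87, rho = 0.88), HOXD11 (r = 0.87, rho = 0.84) and HOXD10 (r = 0.82, rho = 0.88) followed HOXA10, and HOXB3 (r = -0.92, rho = -0.79) and HOXB8 (r = -0.86, rho = -0.70) ran opposite. Permutation p-values of r for these 5 were 0.0381, 0.0331, 0.0491, 0.032 and 0.0458 after adjustment. Those of rho were 0.0865, 0.0899, 0.0862, 0.11 and 0.182, so the ranks missed the threshold. Leaving out cows 1 and 9, the farthest from the median change of HOXA10, r was 0.82, 0.75, 0.71, -0.80 and -0.68. Without cows 4 and 9 it was 0.76, 0.78, 0.90, -0.74 and -0.52. At the adjusted threshold for r, 5 of 22 HOX genes (22.7%) passed, beside 5.56% of all genes. At an unadjusted p under 0.05 there were 8 (36.4%), beside 27.9%. By rho 0 passed after adjustment, of the HOX genes and of all genes, and 7 of the 22 were under 0.05 unadjusted, beside 21.8%. The difference between these shares was not tested. HOXA10 rose in cows 1, 5, 6 and 7, where the smooth muscle sum changed by 0.72, 0.96, 1.05 and 0.50. It fell most in cows 4, 8 and 9, where that sum changed by -1.88, -0.31 and -1.60. In cows 2, 3 and 10 the sum changed by -0.25, 0.05 and -0.43. The permutations took the cows as exchangeable, although each cow shared both of its slides with another cow. The part of slide and of cell composition in these relations was not tested.

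By the median, HOX levels varied between cows more than those of all genes, though not every HOX gene did. The median SD between cows was 0.43 early and 0.42 late for the 23 HOX genes, beside 0.35 and 0.29 over all genes. The within-cow change had a median SD of 0.55, beside 0.41 over all genes, and ran from 0.17 (HOXC4) to 1.24 (HOXD11). Early samples varied more than late ones for 64.8% of all genes, but for 9 of 23 HOX genes. These spreads were not tested.

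Day after calving was also set against level within each group. In limma no HOX gene passed in the early samples (0 of 23, 0% of all genes, smallest adjusted p of a HOX gene 0.829). At an unadjusted p under 0.05 there were 4 (HOXA2, HOXA5 and HOXA3 with positive slopes of 0.30, 0.18 and 0.23 per 10 days, and HOXD11 with -0.34), beside 5.66% of all genes. Cows 4 and 9 were sampled at days 49 and 48 of that group, so these slopes share their samples with the changes above. In the late samples limma gave 0 of 23 at the adjusted threshold, where 0% of all genes passed, and 0 at an unadjusted p under 0.05, beside 1.38% of all genes.

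Partners and regulators of HOX proteins were examined as lists. The TALE cofactors bind DNA beside HOX proteins; 0 of the 10 tested (of 11 listed) passed in limma in either direction, with a median change of -0.01, and the smallest p-values were those of PKNOX1 (-0.38 ± 0.17, SE) and PKNOX2 (0.42 ± 0.21, SE). Of the Polycomb and trithorax proteins, which keep HOX genes silent or active, 0 of 20 tested (of 23) passed. At an unadjusted p under 0.05 there were 5 (25%), near the 22.6% of all genes. The smallest p-values were those of BMI1 (0.40 ± 0.11, SE), part of Polycomb complex 1, and of PHC1 (-0.40 ± 0.14, SE), another subunit. Of the steroid, retinoid and caudal regulators upstream, 0 of 12 (of 15) passed. ALDH1A2, which makes retinoic acid, had the smallest p (-0.69 ± 0.27, SE), followed by the receptor RARG (-0.32 ± 0.16, SE). Of the other genes that pattern the Mullerian duct, 0 of 12 (of 18) passed, with MSX1 at 0.39 ± 0.19 (SE) and MSX2 at -0.33 ± 0.19 (SE).

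Genes linked to HOXA10 or HOXA11 in endometrium numbered 8 tested of 10, and 0 passed. Their median change was -0.29, or -0.07 without cows 4 and 9. FOXO1, a decidual partner of HOXA proteins, had -0.66 ± 0.21 (SE, lower in 9 of 10 cows; limma adjusted p = 0.117), and the prostaglandin E receptor PTGER4 -0.50 ± 0.19 (SE, lower in 8 of 10 cows; limma adjusted p = 0.158). Of the 16 genes tested beside the clusters (of 18), 0 passed, with a median of 0.00. MTX2, which lies next to the HOXD cluster, was higher in 10 of 10 cows by 0.25 ± 0.07 (SE; limma adjusted p = 0.101). SNX11, beside the HOXB cluster, was lower in 10 of 10 by -0.17 ± 0.06 (SE; limma adjusted p = 0.124).

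The slide limits every value of the comparison. With slide as a further fixed block, HOXD10 was 0.52, HOXD11 0.94, HOXA10 -0.04, HOXC11 -1.93 and HOXD12 -0.10 (0 of all genes passed). Given the layout, that fit counts the changes of cows 3, 4, 7 and 8 with reversed sign and is less precise than the paired fit. Its signs cannot decide whether a change depends on slide. Within slide 3 alone, unpaired, they were -0.84, -1.44, -0.33, -0.47 and 0.01, and with slide as a random block -0.46, -0.83, -0.32, -1.01 and 0.38.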

How the data were processed

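Per the file headers, the scanner software was Agilent Feature Extraction 10.5.1.1; its deposited intensity columns give, per spot, a processed signal, a mean signal and a local background. Per the labels' protocols, total RNA was labelled with Cy3 in one colour. The authors' deposited table of log2 values was the processed signal on the log2 scale after 75th percentile scaling and centring of each probe (r at least 0.99997), and served as an alternative.

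Here log2 processed signals were scaled to the 75th percentile of each array. Control spots and spots with outlier flags did not enter, and repeated spots were averaged by probe. A probe entered the fit if well above background on at least 8 of 20 arrays, and the probe of highest mean represented its gene. Names came from a RefSeq table of ARS-UCD2.0 (21306 probes by accession, 10745 by symbol, 1171 by gene number, 372 by synonym; 10059 kept the design name); its coordinates were not used. Limma 3.58.1 in R 4.3.3 was fitted on all genes. Tested on simulated data of 19208 genes, the late minus early fit recovered 52%, 70%, 96% and 98% of 50 genes changed by 0.5, 1, 2 and 3 (log2), with 8 false calls. The simulated noise was independent between genes and held no slide effect, so these rates do not cover errors from the slides. They are rates over all genes, and by the median SD HOX changes varied more between cows than those of all genes.

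The animal numbers and titles in the labels pair the samples. Same-cow deviations correlated with r from -0.11 to 0.76 (median 0.42, 8 of 10 cows above 0.1; median -0.03 between cows). Limma p-values of late minus early rest on the spread of the within-cow changes, which also holds slide differences. Those of the day trends rest on the spread between cows within a group. Precision is limited by the number of arrays.

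Every HOX gene with a probe was named. Values were given for the 6 of smallest p and for HOXA9, HOXA10, HOXA11 and HOXA13, and for the 2 of smallest p in each pathway list. The members and lists were chosen with earlier results of these data known.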

Additional observations from a re-analysis of the deposited data

Results flagged for a closer look

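Over 46 groups of 10 HOX levels (23 genes in each period), 7 held a sample far from the rest, its gap to the nearest sample being a large part of the group's range. Chance would give about 1 such group in 20 if the groups were independent, but these share the same arrays. The share over all genes was not computed, so the count is not read as an excess. Cow 9 accounted for 3 of them. Its early level was the lowest for HOXB3 (-5.74) and the highest for HOXD4 (1.42), and its late level was the lowest for HOXC6 (-4.94). Cow 2 accounted for 2, with the lowest early level of HOXB7 (-7.08) and the highest late level of HOXC13 (-4.57). The remaining ones were the late level of HOXD4 in cow 6 (1.92) and the early level of HOXD12 in cow 10 (-4.92), both the highest of their group.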

How the results depend on the processing

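In limma, the count of HOX genes past the adjusted threshold was 0 in every setting tried, for late minus early and for both day trends; the smallest adjusted p of a HOX gene over these settings was 0.065, and at an unadjusted p under 0.05 the reported fit had 5 of 23, and the settings on the same 23 genes had 0 to 8. Of 571 values of single HOX genes under the settings, 518 kept the sign of the reported one. Many of these could not have changed sign. Changing the filter, the pairing or the variance model gave the reported estimate again, such as 0.43 for HOXA2. Averaging probes changed nothing for genes with a single probe, and leaving out each cow in turn kept most of the same cows. The count of 518 is therefore not a measure of how stable the signs were. The count over all genes moved more: from 256 it went to 114 with no filter, 720 with cow as a random effect, 0 with slide as a fixed block, 35 with slide as a random block, 0 within slide 3 (and 0 there when the early array of cow 9 was dropped). Leaving out each cow in turn gave 35 to 160 genes. Without the pairing (no replicate block) it was 119, and the HOX count stayed 0.

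Signs changed as follows, and the cause was not tested. The slide fits are imprecise by design, so a changed sign there cannot show dependence on slide. The fixed block counts the changes of cows 3, 4, 7 and 8 with reversed sign. Slide 3 alone sets 2 early arrays against 2 late arrays of other cows. With slide as a fixed block: HOXA3 -0.055, HOXA5 -0.038, HOXA7 -0.046, HOXB3 -0.091, HOXB4 -0.65, HOXB7 -0.72, HOXB8 -0.32, HOXB9 -0.39, HOXC4 0.21, HOXD10 0.52, HOXD11 0.94, HOXD12 -0.097 and HOXD13 0.075. Within slide 3: HOXB2 -0.18, HOXB7 -0.20, HOXC6 0.46 and HOXD4 -0.61. In slide 3 less the early array of cow 9: HOXA7 -0.22, HOXA10 0.049, HOXB2 -0.0049, HOXB3 -0.30, HOXB4 -0.33, HOXB7 -0.29, HOXB8 -0.39, HOXB9 -0.17, HOXC6 0.82, HOXD4 -0.22 and HOXD12 -0.47. Without cows 4 and 9: HOXA3 -0.010, HOXA5 -0.016, HOXA7 -0.15, HOXB3 -0.013, HOXB4 -0.024, HOXB8 -0.096 and HOXB9 -0.19. HOXC4, reported at -0.0050, was 0.19 by its other probe, 0.093 as a mean of probes, 0.022 scaled to the median of detected probes, 0.030 with normexp and 0.060 with quantile normalization. HOXA3 was -0.019 by another probe, and HOXA9 0.066 as a mean of probes. Leaving out each cow in turn, the ranges that crossed 0 were -0.012 to 0.19 (HOXA7), -0.17 to 0.032 (HOXA9), -0.0026 to 0.15 (HOXB7), -0.080 to 0.13 (HOXB9), -0.081 to 0.17 (HOXC13), -0.033 to 0.028 (HOXC4) and -0.22 to 0.039 (HOXC6).

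The 5 relations with HOXA10 were recomputed under 5 other settings chosen after seeing the data and without each cow in turn. All kept their sign and an unadjusted permutation p under 0.05. That cut is looser than the adjusted one by which the 5 were picked, and 27.9% of all genes passed it in the reported setting. Whether the adjusted calls held in the other settings is not shown. Dim probes near background (HOXC11, HOXB1, HOXD13) limit what can be said of those genes.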
